A study of Arabidopsis thaliana with 2 samples.

Results

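HSP70 genes and genes of their partner proteins were compared between leaves of wild-type Arabidopsis thaliana and of the double knockout KO-HsfA1d/A1e after high light. The genes described are the HSP70 genes Hsp70-2 (AT5G02490), AT3G09440 and AT1G11660, the HSP70-associated factor gene Fes1A (AT3G09350) and the DnaJ-type gene AT2G20560. Each was taken from probe sets that the platform annotation assigns to that gene alone, which gave 1 probe set for each of the 5 genes, out of 9023 genes named in this way. Both genotypes were of the Columbia ecotype, and the rosette leaves came from plants aged 2 weeks. Growth was on MS medium at 100 µE m-2 s-1, with days of 16 h at 25°C and nights of 8 h at 22°C, and both genotypes then received 400 µE m-2 s-1 at 25°C for 30 min. Each genotype has 1 array, labelled biological replicate 1, so there is no replicate error, no SD and no test, and every difference below describes these 2 arrays. The alleles and lines of the double knockout, and whether plants were pooled, are not stated in the labels. Without an array from unstressed plants, the values give no response to light.

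HSP70 proteins are chaperones that bind exposed hydrophobic stretches of unfolded proteins and release them in a cycle driven by ATP. J-domain proteins, also called DnaJ-type or HSP40 proteins, bring clients to HSP70 and stimulate its ATP hydrolysis, while nucleotide exchange factors such as the HSP110, Fes1, BAG and GrpE proteins open HSP70 again by exchanging ADP for ATP. HsfA1d and HsfA1e are heat shock factors of class A1, which activate heat-inducible chaperone genes in plants, and cytosolic HSP70 is known to hold factors of this class in check. Fes1A is known in Arabidopsis to protect cytosolic HSP70 from degradation and to be needed for acquired heat tolerance.

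All 5 genes had the lower value in the mutant, where 44.6% of all named genes did, from 8.38-fold lower for Hsp70-2 to 1.02-fold lower for AT1G11660. Of the 5, 3 (Hsp70-2, Fes1A and AT2G20560) were at least 2-fold lower, beside a background of 1.38% of the 8271 probe sets that passed an expression filter. AT3G09440 joined them at 1.5-fold, giving 4 of 5 beside a background of 3.34%, and only Hsp70-2 was at least 3-fold lower, beside 0.617%. None of the 5 was at least 2-fold higher, beside 0.121%. The genes were chosen with earlier values of these arrays known, so their number past 2-fold is a description. Differences are given as mutant minus wild type of log2(intensity + 16), and folds were taken from the deposited intensities with nothing added. The filter keeps probe sets whose mean log2 value reaches the median of all 16541 probe sets, 8.44, and all 5 genes passed it. Hsp70-2 passed only through its wild-type value, so its place in the 2-fold and 3-fold counts rests on its brighter array. The median difference of the probe sets past the filter was 0.03, and the central 95% of them lay between -0.68 and 0.52.

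Hsp70-2 encodes a cytosolic HSP70. Its intensity was 2072 in wild-type leaves and 247.3 in mutant leaves, so 11.9% of the wild-type value was left. The difference was -2.99. The probe set lay at percentile 89.9 of all intensities in wild-type leaves and at percentile 41.5 in mutant leaves, where the lowest 5% ended at 31.9. The mutant value thus lay above the lowest 5% but under the mutant array's median of 331.9. The files carry no detection calls, so how much of this value is background is unknown. Hsp70-2 passed the expression filter through its wild-type value, since the mutant value lay under the filter's intensity of 332.0. Its difference ranked 8 from the lowest among the 8271 probe sets past the filter, and this rank describes a probe set kept by its brighter array. Of the 2863 probe sets with a mean log2 value from 9 to 10, a range chosen after the values were seen, 1 other was as low, and the central 95% lay between -0.64 and 0.55.

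AT3G09440 encodes another cytosolic HSP70. It was bright on both arrays, with 12548 in wild-type leaves and 7076 in mutant leaves. The mutant kept 56.4% of the wild-type signal, a 1.77-fold lower value and a difference of -0.82. The 714 probe sets with a mean log2 value from 12 to 14 formed a range also chosen after the values were seen. Their central 95% lay between -0.86 and 0.39, so AT3G09440 sat just inside it, with 19 others as low or lower.

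AT1G11660 belongs to the HSP110 branch of the family, whose members serve as exchange factors for other HSP70 proteins. Its intensity was 702.1 in wild-type leaves and 687.2 in mutant leaves, a difference of -0.03 and a ratio of 1.02. In the mutant, 97.9% of the signal was present. Of the probe sets past the filter, 43.7% had a value below 0, so a difference of this size and sign was common.

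**Figure D1:**
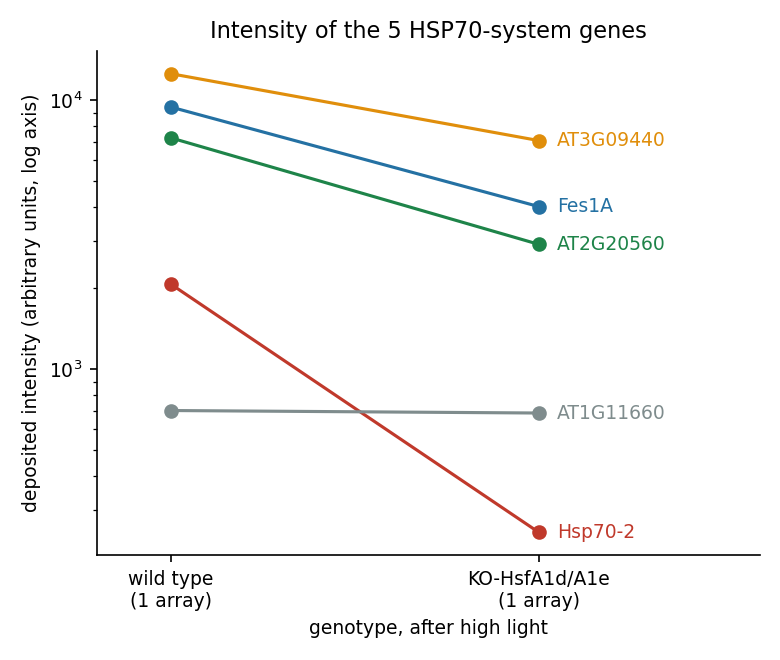
Deposited intensity (log axis, arbitrary units) of the 5 genes by genotype, 1 array per genotype, with a line joining the 2 values of each gene. The line of Hsp70-2 is the steepest, from 2072 to 247.3, and that of AT1G11660 is nearly level, from 702.1 to 687.2. Heights of different genes are not comparable, since each probe set has its own brightness.

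Both partner genes lay between these extremes and close to each other. Fes1A had 9431 in wild-type leaves and 4022 in mutant leaves, 2.34-fold lower, with a difference of -1.23. AT2G20560 had 7245 and 2911, 2.49-fold lower, with a difference of -1.31. The mutant kept 42.6% of the Fes1A signal and 40.2% of the AT2G20560 signal. Both fell outside the central 95% of the 714 bright probe sets, with 12 and 9 others as low. That brightness range was chosen with the values known, so this is a description and no test. Among the 8271 probe sets past the filter Fes1A and AT2G20560 ranked 78 and 71 from the lowest, and AT3G09440 ranked 145.

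**Figure D2:**
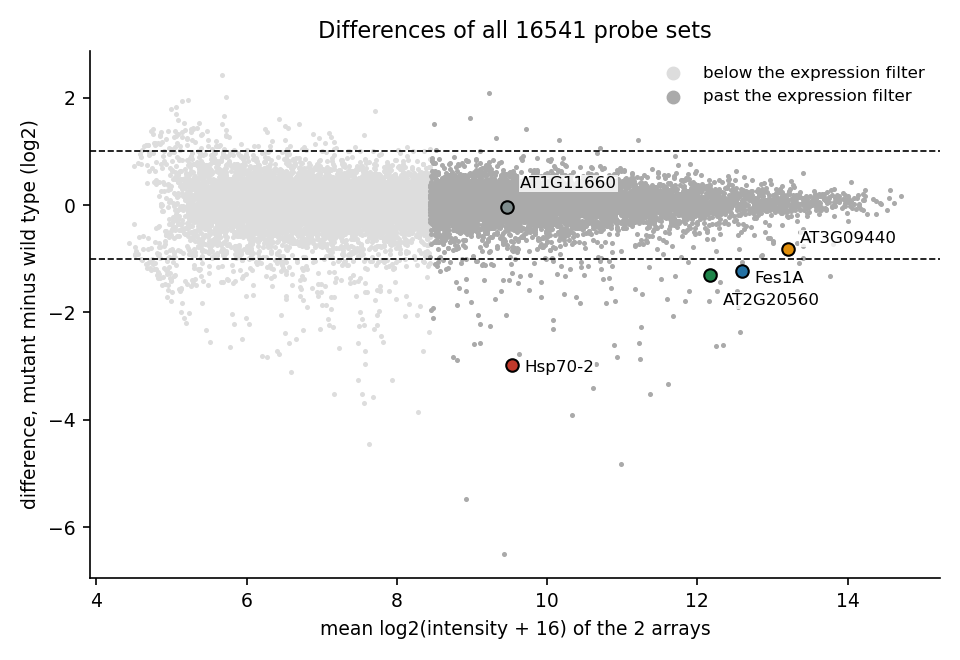
Difference between mutant and wild type (log2) against the mean log2(intensity + 16) of both arrays for all 16541 probe sets, with the 5 genes marked by name and dashed lines at 2-fold. Hsp70-2 lies at -2.99, AT2G20560 at -1.31 and Fes1A at -1.23 below the lower line, and AT3G09440 at -0.82 and AT1G11660 at -0.03 lie above it.

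How far the 5 genes differ from one another can be set only against the scatter between probe sets of 1 gene. For 13 genes with more than 1 probe set past the filter, the differences of a gene's probe sets had an SD of 0.20 log2 units, a median gap of 0.28 and a largest gap of 0.56. This scatter holds no error between plants, RNA preparations or hybridizations. Of the 10 pairs among the 5 genes, 7 had gaps wider than 0.56. Hsp70-2 was lower than AT3G09440 by 2.16 log2 units and lower than AT2G20560 by 1.68, and AT3G09440 was lower than AT1G11660 by 0.79. The other 3 pairs lay within the scatter. Fes1A and AT2G20560 were 0.08 apart, AT3G09440 and Fes1A 0.40, and AT3G09440 and AT2G20560 0.49. The order of the differences ran from Hsp70-2 over AT2G20560, Fes1A and AT3G09440 to AT1G11660, and the middle 3 lay within the scatter. With 1 array per genotype, whether any part of this order would recur in other plants cannot be told.

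The summed signal of the 3 HSP70 genes was 15321 in wild-type leaves and 8011 in mutant leaves, 1.91-fold lower. Hsp70-2 made up 13.5% of the sum in wild-type leaves and 3.09% in mutant leaves, a shift of -10.4 percentage points. AT3G09440 made up 81.9% and 88.3%, a gain of 6.44 points, and AT1G11660 made up 4.58% and 8.58%. The share of AT3G09440 was therefore higher in the mutant although its signal was lower. These are shares of intensity, not of transcripts. Both the shares and their shifts depend on the brightness of each probe set and on which genes are summed.

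**Figure D3:**
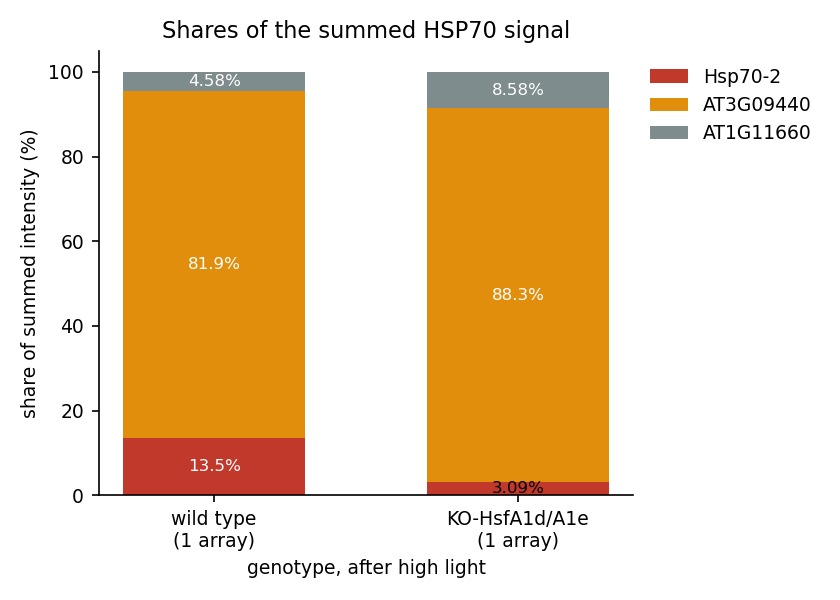
Share (%) of each of the 3 HSP70 genes in their summed intensity by genotype, 1 array per genotype. The Hsp70-2 segment is 13.5% in wild-type leaves and 3.09% in mutant leaves, while AT3G09440 takes 81.9% and 88.3%.

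With the cytosolic pair alone, the sum was 14619 in wild-type leaves and 7324 in mutant leaves. Hsp70-2 then held 14.2% and 3.38%, and AT3G09440 gained 10.8 points in place of 6.44. With AT4G16660, a further HSP70-related gene, in the sum, its gain was 4.62 points. HSP70 coding sequences resemble one another, and signal from one HSP70 transcript on the probes of another was not tested. Both partner genes were also lower relative to the summed HSP70 signal. Fes1A signal per unit of summed HSP70 signal was 0.616 in wild-type leaves and 0.502 in mutant leaves, a log2 change of -0.29. For AT2G20560 the ratios were 0.473 and 0.363, a log2 change of -0.38. Both changes were smaller than the largest gap between probe sets of 1 gene, 0.56. For Hop3, a further partner gene described below, the log2 change was -0.66, which was wider than that gap.

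The wider HSP70 system was covered by 65 genes in 7 lists, of which 21 were measured and 44 were not analysed here. Measured genes are those that a probe set named alone, and 7062 of the 16541 probe sets carry no gene name. Of the 21, 18 had the lower value in the mutant, against 44.6% of all 9023 named genes, and 4 were at least 2-fold lower, against 2.07%. None of the 21 was at least 2-fold higher, against 0.809%. Their median difference was -0.37, against 0.03 for all named genes. The 21 include the 5 genes above. Without these, 13 of 16 had the lower value, 1 was at least 2-fold lower and the median was -0.22. Apart from the 5 genes and Hop3, AT4G16660, AT4G28480, ATERDJ3B, Fes1C and Hop2, the list genes named below were chosen after their values were seen.

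Cytosolic HSP70 genes were represented by Hsp70-2 and AT3G09440 of 7. Of 7 HSP70 genes of mitochondria, chloroplasts and the endoplasmic reticulum, none had a probe set naming it alone. AT5G02500 (HSC70-1), which lies next to Hsp70-2 in the gene order, was among those not analysed here. Of 4 genes for HSP110 and related proteins, AT1G11660 and AT4G16660 were measured. AT4G16660, which encodes a relative of HSP110 in the endoplasmic reticulum, had 712.4 in wild-type leaves and 527.9 in mutant leaves (-0.42). Its gap from AT1G11660 was inside the scatter of probe sets given above.

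Cytosolic J-domain proteins had 6 of 14 genes measured and a median difference of -0.52. AT2G20560 was the lowest of the 6. AT4G28480 came next, with 1405 in wild-type leaves and 696.9 in mutant leaves, and a difference of -0.99 that lies just short of 2-fold. Its ratio without the added 16 was 2.02, so its side of the threshold depends on the pseudocount and the scaling. Of the other members, AT1G10350 had 437.7 and 332.2 (-0.38) and AT5G01390 had 353.7 and 411.9 (0.21). AT3G08910, with 116.6 and 68.1 (-0.66), and AT3G47940, with 122.9 and 113.6 (-0.10), were below the expression filter. Differences within this group thus ran from -1.31 to 0.21.

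J-domain proteins of organelles had 4 of 13 genes measured, 2 of them past the filter, and a median of -0.22. None reached 2-fold, but with 2.07% of all named genes at least 2-fold lower and 0.809% higher, this says little. ATERDJ3B, a J-domain protein of the endoplasmic reticulum, had 1259 in wild-type leaves and 972.1 in mutant leaves (-0.37). ATERDJ2A, a membrane protein of the same compartment, had 984.7 and 854.5 (-0.20). Its relative ATERDJ2B had 341.2 and 286.7 (-0.24) and was below the filter. The mitochondrial ATJ1 was dim, with 59.1 and 88.5 (0.48).

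Among nucleotide exchange factors, 4 of 14 genes were measured and only Fes1A reached 2-fold. The Fes1 family had all 3 of its members measured. Fes1A was bright and 2.34-fold lower in the mutant, whereas Fes1C had 462.3 and 478.3 (0.05). Fes1B was dim, with 80.6 and 71.7 (-0.14), and lay below the filter. The gap between Fes1A and Fes1C, 1.27 log2 units, was more than the largest gap between probe sets of 1 gene. AT1G36390, a gene for a chloroplast GrpE protein, had 434.1 and 429.7 (-0.01). None of the 7 BAG genes had a probe set naming it alone.

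Of 6 other partners, the 3 Hop genes were measured. Hop proteins link HSP70 to HSP90 and pass clients from one to the other. Hop3 had 6595 in wild-type leaves and 2177 in mutant leaves, 3.03-fold lower (-1.59), Hop2 had 2438 and 1819 (-0.42), and Hop1 had 768.5 and 741.9 (-0.05). The widest gap between measured members was 2.16 log2 units for cytosolic HSP70, 1.54 for Hop, 1.52 for cytosolic J-domain and 1.27 for Fes1 genes. Each of these was more than 0.56, but it joins the members furthest apart. Other members lay closer together, such as AT2G20560 and AT4G28480, which were 0.32 apart.

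**Figure D4:**
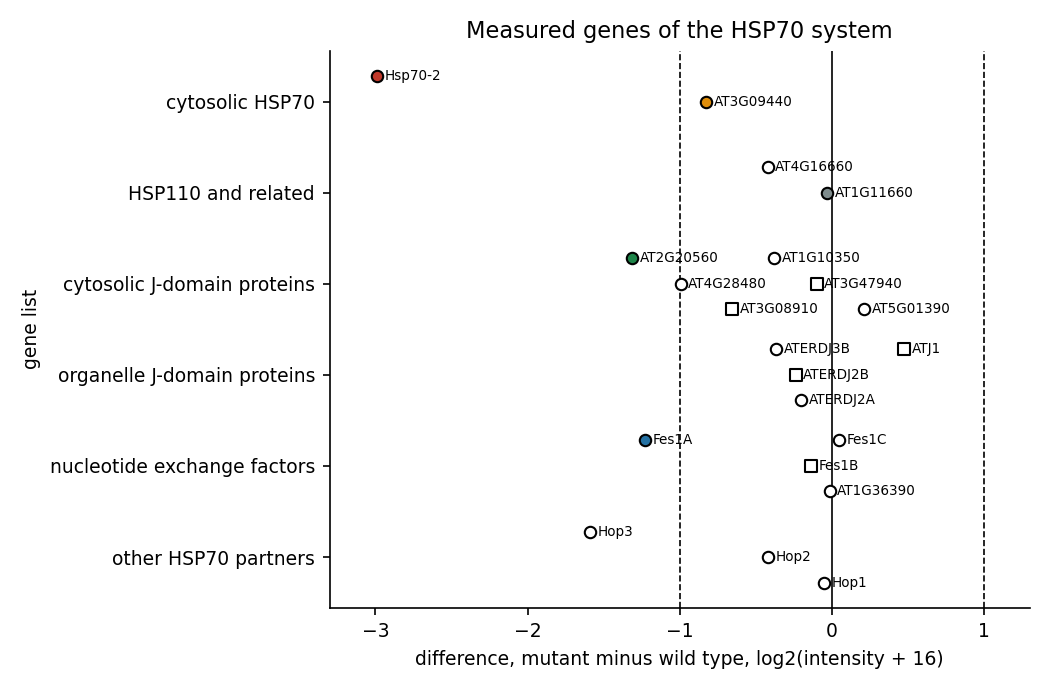
Difference between mutant and wild type (log2) of the 21 measured genes of the HSP70 system, by gene list. Filled points are the 5 genes, open circles are other genes past the expression filter, squares are genes below it, and dashed lines mark 2-fold. Hsp70-2, AT2G20560, Fes1A and Hop3 lie beyond the lower line, AT4G28480 lies on it at -0.99, and no gene reaches the upper line.

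Genes nearest in difference over the 2 arrays were sought among named genes past the filter. The neighbours of Hsp70-2 were the small heat shock protein gene AT2G29500 (-3.33) below it and AT5G25450 (-2.95) above it. Fes1A lay between AT1G67360 (-1.26) and AT2G36220 (-1.20), and AT2G20560 lay between AT2G25510 (-1.32) and AT1G49750 (-1.31). AT3G09440 lay between AT5G45510 (-0.83) and RD2 (-0.82). Within 0.05 log2 units there was 1 other gene for Hsp70-2, 4 each for Fes1A and AT2G20560, 13 for AT3G09440 and 713 for AT1G11660, whose nearest genes were YAB5 and UGT71C4 (both -0.03). With a single pair of arrays, this likeness rests on 1 difference per gene.

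The genes beside the 5 on the chromosomes were measured in part. Fes1A and AT3G09440 lie on the same chromosome with 8 protein-coding genes between them in the TAIR10.1 gene table. Among the 5 protein-coding genes on each side of each of them, a window chosen after the data were seen, 19 genes were measured, 5 of these beside Hsp70-2 and 2 beside AT2G20560. Their differences ran from -0.66 to 0.79. None reached 2-fold, but with 2.07% of all named genes at least 2-fold lower and 0.809% higher, a count of 0 among 19 says little about these neighbours. Beside Hsp70-2, AT5G02480, the gene just before it, had 3942 in wild-type leaves and 3727 in mutant leaves (-0.08), and AT5G02440, located 5 genes away, had 256.3 and 453.4 (0.79). Beside Fes1A, AT3G09360 had 180.9 and 108.4 (-0.66) and was below the filter. Beside AT2G20560, AT2G20550 had 201.1 and 173.7 (-0.19).

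**Figure D5:**
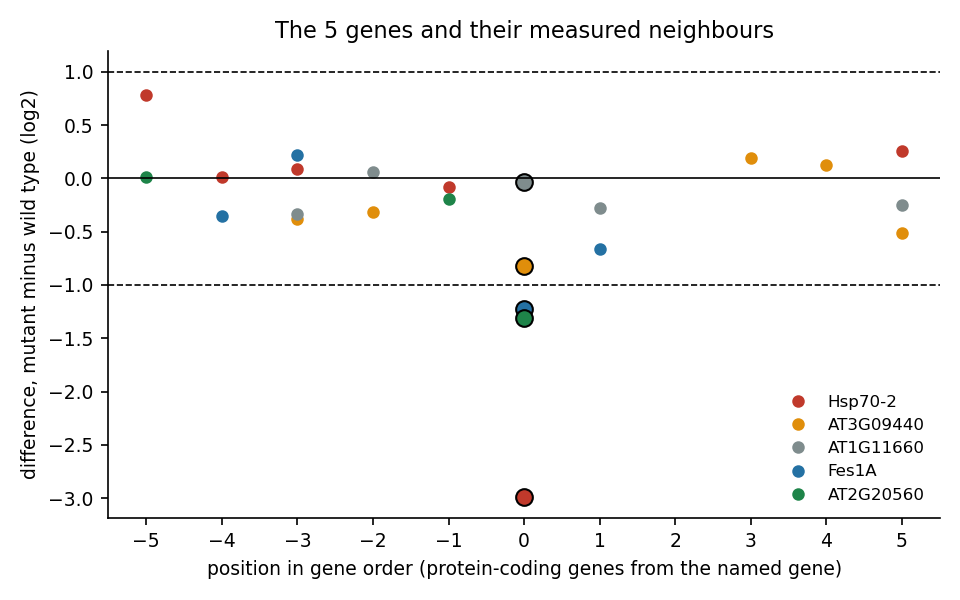
Difference between mutant and wild type (log2) of the 5 genes (large points at 0) and of the 19 measured genes among 5 protein-coding genes on each side, by position in the gene order. Each color belongs to 1 of the 5 genes, and dashed lines mark 2-fold. All neighbours lie between -0.66 and 0.79, inside the dashed lines.

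Array quality and tissue were checked as far as the named probe sets allow. The arrays had median intensities of 334.1 (wild type) and 331.9 (mutant). No probe set named HsfA1d or HsfA1e, so the knockout could not be checked against its label. Of 11 leaf markers 3 were measured (RCA, LHCB4.1 and LHCB4.2), with a summed intensity of 48783 in wild-type leaves and 50374 in mutant leaves. RCA had a difference of 0.13, and LHCB4.1 and LHCB4.2 each had -0.03. Of 8 root markers only PYK10 was measured, with 2555 and 3758 (0.55), and of 3 guard cell markers only FMA, with 339.7 and 316.3 (-0.10). The vascular and trichome markers were not analysed here. No measured marker was at 0. PYK10 was higher in the mutant, while 18 of the 21 measured HSP70-system genes were lower and 3 were higher. The part of PYK10 in the result was not tested. In whole leaves, fewer cells of a type and less RNA per cell cannot be told apart.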

How the data were processed

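Total RNA was labelled for Affymetrix arrays by the 3'IVT Express procedure from 100 ng, per the labels' protocols. Each deposited value is the intensity of a probe set on an array, on a linear scale. How the authors summarized, corrected and scaled them is not given in the sources used here, and depth has no meaning for arrays, whose number limits the precision. The values were used as deposited, since the array medians past the expression filter differed by 0.02 log2 units, under a limit of 0.1.

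Of 16541 probe sets, 9139 had 1 gene name in the platform annotation, 340 several and 7062 none. Entrez identifiers matched 9095 of the 9139 to the TAIR10.1 gene table. No build is named for the files, so no coordinates are given. Where several probe sets named a gene, the brightest by mean was used. The alternatives were median centring, quantile normalization, loess (span 0.3), pseudocounts of 1 and 64, other filters, folds of 1.5 and 3, and other sums. A pseudocount of 0 was added after seeing the data. The plan was to name the 5 genes, list genes at least 2-fold different, the list gene under 2-fold with the highest mean, and the nearest genes in difference. The other list genes and the chromosome neighbours named above were chosen after their values were seen. Members and lists were chosen with earlier results of these data known. Planned descriptions of promoter elements and protein identity were not made. Python 3.11.15, pandas 2.3.3, numpy 2.4.6 and statsmodels 0.14.6 were used. The counting was tested on simulated data with planted differences larger than 2-fold in bright probe sets, which says nothing about differences near 2-fold.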

Additional observations from a re-analysis of the deposited data

How the results depend on the processing

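No paired analysis was possible because there is only 1 array per genotype, and for the same reason no replicate could be left out. Under the scalings, the pseudocounts of 0, 1 and 64 and the averaging of probe sets, which could not alter genes with 1 probe set, all 35 values of the 5 genes kept their sign and side of 2-fold. Hsp70-2 ran from -3.07 to -2.78, AT3G09440 from -0.87 to -0.81, Fes1A from -1.27 to -1.22, AT2G20560 from -1.35 to -1.29 and AT1G11660 from -0.07 to -0.03. Of the 5 genes, 3 were at least 2-fold lower, 4 at least 1.5-fold lower (3.34% of probe sets past the filter) and 1, Hsp70-2, at least 3-fold lower (0.617%). With the filter at percentile 75 the count was 2, beside 65 of all probe sets past that filter. Hsp70-2, at a mean log2 value of 9.53, did not pass it. The gain of AT3G09440 in the HSP70 sum moved from 6.44 to 10.8 points with the cytosolic pair alone, by construction of the sum, and the other 13 share values stayed within 1.5 times. Those under median centring could not change, since it multiplies a whole array by a constant. AT4G28480 passed 2-fold under each of the 3 scalings, reaching -1.03 under loess, and with pseudocounts of 1 and 0. With a pseudocount of 64 it was at -0.95. Each setting that took it past 2-fold makes 5 of the 21 HSP70-system genes at least 2-fold lower in place of 4. Over all probe sets past the filter, the same settings gave 117 to 120 at least 2-fold lower in place of 114. All 36 list medians moved by less than the SD of 0.20 between probe sets of a gene. Over all probe sets, 114 were at least 2-fold lower and 10 higher. Removing the filter gave 377 lower and 127 higher, and a filter at percentile 75 gave 65 lower and 3 higher. At 1.5-fold, 276 were lower and 129 higher, and at 3-fold 51 were lower and 2 higher. The lower share of these calls was 91.9%, 74.8% with no filter and 68.1% at 1.5-fold. Background is unknown for dim probe sets.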
